A study of Mus musculus with 8 samples.

Results

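The S100 calcium-binding proteins were described as a gene family in mouse diaphragm, the flat muscle that drives breathing. Members were the probe sets whose platform annotation names 1 gene symbol, that symbol being S100a1, S100a4, S100a6, S100a8, S100a9, S100a10, S100a11 or S100a13. The rule found 9 of the 22690 probe sets on the array, for 7 of the 8 genes. S100a1 and S100a10 had 2 probe sets each. S100a11 is not analysed here, because its probe set is annotated with several symbols. RNA came from 4 pools of dy/dy dystrophic mice and 4 pools of normal control mice, all 8 weeks old, with 3 mice in each pool and 1 Affymetrix array per pool. The dy/dy mice are a model of laminin-deficient muscular dystrophy, in which the basement membrane that sheathes each fibre has too little laminin α2. The labels give neither the sex nor the strain background of either group, and the variation among the mice of a pool cannot be seen.

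S100 proteins are small calcium sensors built from a pair of EF-hand motifs that work mostly as dimers. On binding calcium most of them expose a surface that grips target proteins, such as annexins, myosin and tropomyosin. S100a10 has lost calcium binding and stays bound to annexin A2. In muscle, S100a1 is the member of the fibres themselves, while S100a4, S100a6 and S100a10 are better known from fibroblasts, immune cells and regenerating cells. S100a8 and S100a9 pair as calprotectin, an abundant protein of neutrophils and monocytes.

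Lama2, the gene of laminin α2, was lower in all 4 dystrophic pools (232 to 333) than in all 4 normal pools (749 to 982). Signals are the authors' MAS5 values rescaled to a common array mean. Skeletal muscle fibre markers were bright on every array, with a summed signal over 15 genes of 214100 to 251000 in dystrophic and 222100 to 336000 in normal pools. Dystrophic replicate 3 and normal replicate 4 lay at the ends of the first principal component (33.97 and -36.13, against -11.47 to 12.52 for the other arrays). Liver transcripts, summed over 10 genes, reached 60330 in dystrophic replicate 3 and 2690 to 7203 in the other dystrophic pools, against 1591 to 4567 in normal pools. Poly-A spike-in controls, which are bacterial transcripts mixed into each sample, fell into 3 levels. Replicate 1 of both groups lay at 520 to 581, replicate 3 of both at 288 to 329, and replicates 2 and 4 of both at 123 to 157.

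S100a4 rose in dystrophic diaphragm, and no other S100 probe set passed the test. Groups were compared with limma on log2(signal + 16), with p-values adjusted over all 13575 probe sets bright enough to be tested. Each log2 difference was taken as dystrophic minus normal. Of the 9 S100 probe sets, 7 passed the filter on low values, which left out the dimmest 40%, and 2 did not (S100a8 and S100a9). Of these 7, 1 was called higher and 0 lower, where limma called 0.494% of all tested probe sets (0.457% higher and 0.0368% lower). At an unadjusted p under 0.05, 4 of the 7 were higher, and 5.6% of all tested probe sets were. All 7 differences lay above 0, as did 47.7% of all tested probe sets. Their median was 0.38, beside -0.01 over all tested probe sets. The 7 probe sets stand for only 5 genes, and those that hybridise to 1 gene are not independent.

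**Figure D1:**
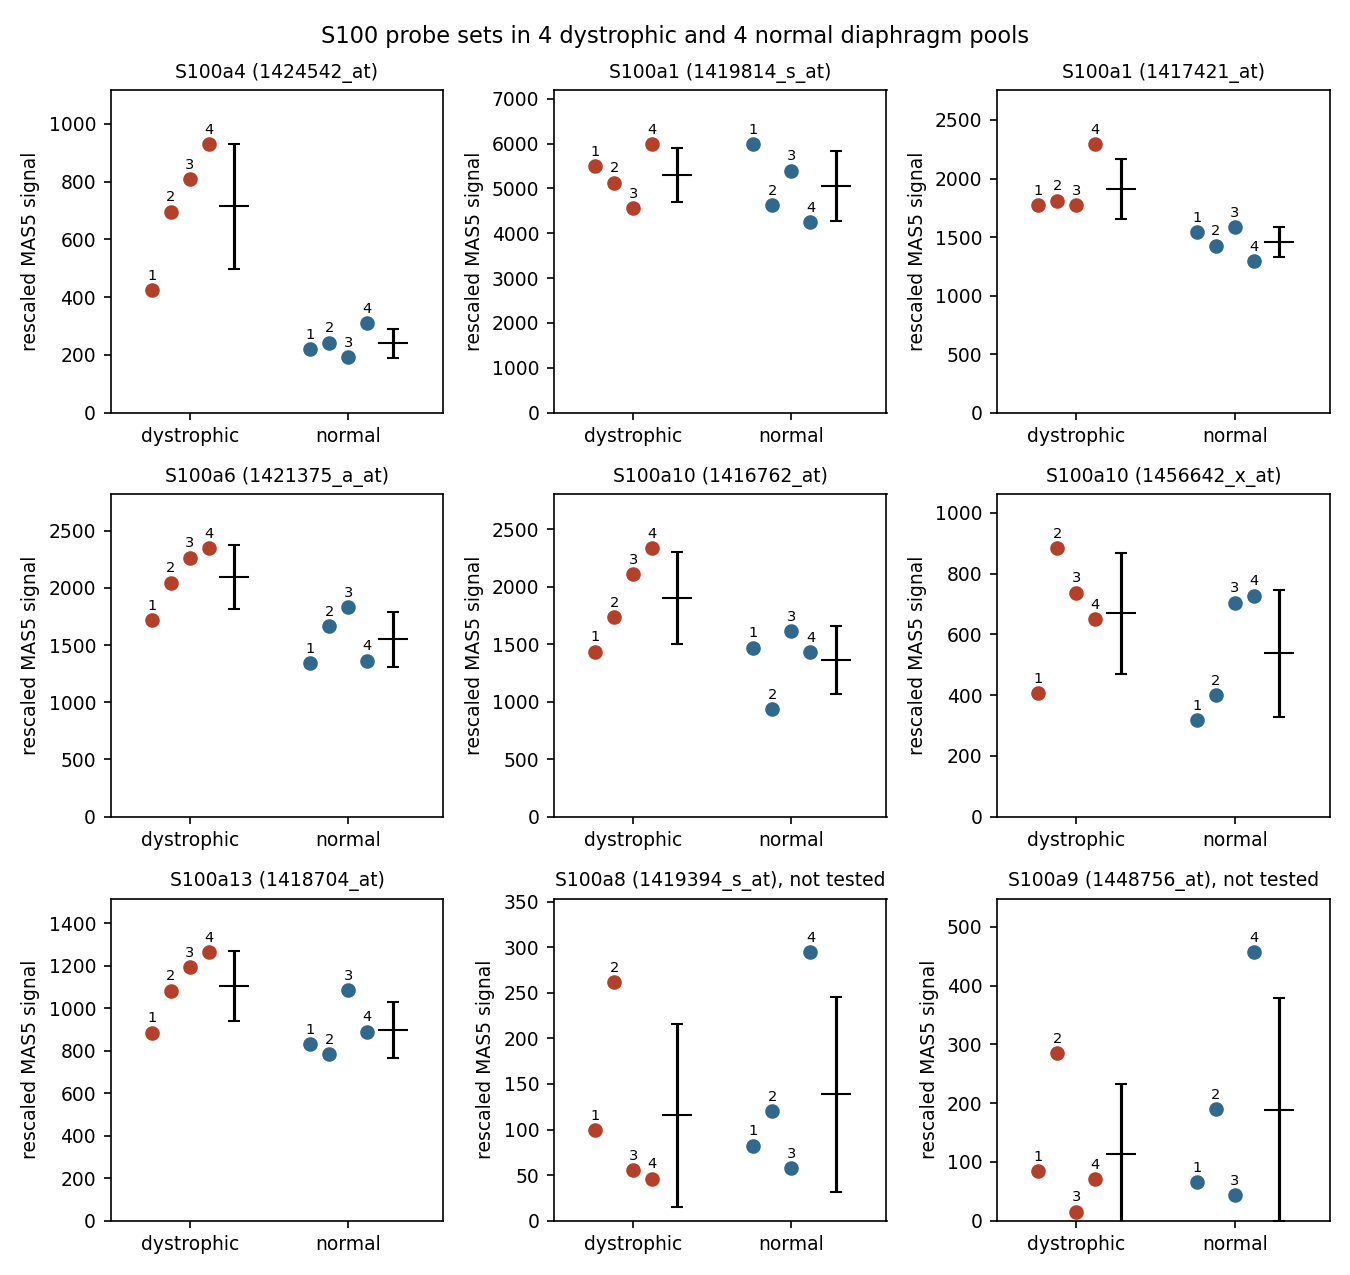
Rescaled MAS5 signal (linear axis from 0) of the 9 S100 probe sets in each dystrophic and each normal pool. Numbers mark the replicate, and black bars show the mean and SD of 4 pools (cut off at 0 for S100a9). All 4 dystrophic pools lie above all 4 normal pools for S100a4 and for the S100a1 probe set 1417421_at.

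S100a4, known as metastasin or fibroblast-specific protein, binds non-muscle myosin and is made by motile fibroblasts and macrophages. Its probe set, 1424542_at, had signals of 423.7, 695.3, 809.1 and 929.4 in dystrophic replicates 1 to 4, against 219.9, 241.6, 191.4 and 308.7 in normal replicates 1 to 4. The groups did not overlap, and the lowest dystrophic pool, replicate 1, stood well apart from the other 3. The mean was 714 ± 216 in dystrophic and 240 ± 49.96 in normal pools (SD, n = 4). On the log2 scale the difference came to 1.47 (SE 0.23) and passed limma at an adjusted p = 0.0165. The two-sided exact permutation p was 0.0286, the lowest possible with 4 against 4 pools, which any probe set without overlap reaches. The ratio of mean signals was 2.97, and 47 of all tested probe sets had a log2 difference at least this high, S100a4 included.

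The S100a4 difference was positive at every spike-in level, at 0.90 between the replicate 1 arrays, 1.99 between the replicate 3 arrays and 1.504 among the 4 arrays of replicates 2 and 4. The call was lost without any one of dystrophic replicates 2, 3 or 4 (adjusted p = 0.0589, 0.0716 and 0.0818) or normal replicates 2 or 3 (adjusted p = 0.0536 and 0.055). It was also lost without dystrophic replicate 3 and normal replicate 4 together (log2 difference 1.52, adjusted p = 0.0751).

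Some markers of cell types known to make S100a4 were higher too. Of 18 tested macrophage and monocyte markers 3 rose, 0 fell and 15 did not pass, with a median log2 difference of 0.69. Their summed signal over 21 genes was 17460 to 23000 in dystrophic and 10900 to 16250 in normal pools. With the probe sets of each gene averaged, limma called 5 of the 18, and 70 of all 7478 genes. Ms4a7 and Tyrobp were the ones gained, at the same log2 differences in both fits (1.03 and 0.77). Of 13 tested fibroblast markers 3 rose, 0 fell and 10 did not pass, with a median of 0.51. Their summed signal over 14 genes was 47360 to 59210 in dystrophic and 33650 to 40070 in normal pools. Of 4 tested Schwann cell markers limma called 0, and their summed signal over 6 genes was 3722 to 4312 in dystrophic and 3145 to 3479 in normal pools. The TrpnX probe sets, which serve as negative controls, ran from 0.78 to 32.2, and each of these markers exceeded them on at least 1 array. Over all 8214 tested genes 0.597% rose and the median was -0.01. The part of these cells in the S100a4 difference was not tested, and in bulk muscle more cells of a type and more RNA per cell cannot be told apart.

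The profile nearest to that of S100a4 was that of Lgals3. Nearness was the root mean square difference between log2 profiles over the 8 arrays, each centred on its own mean, among 8209 genes. Lgals3, galectin 3, a sugar-binding protein of phagocytes, lay at 0.223 log2 units. The median gene lay at 0.855, and a gene with equal values on all arrays would lie at 0.811. Lgals3 had 539.6, 593.5, 844.5 and 1017.2 in dystrophic replicates 1 to 4, against 204.9, 206.6, 255.2 and 279.8 in normal replicates 1 to 4. Dystrophic replicates 3 and 4 were the highest for it, as for S100a4, a likeness for which Lgals3 was picked. The second was Ncam1, a neural adhesion molecule that regenerating fibres also make, at 0.263.

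The promoter of S100a4 is printed because this is the member that passed the test. It is the RefSeq stretch of 250 bases before to 50 after the annotated start, at chr3:90603520-90603819 on the plus strand of GRCm38.p6, with the motif TATAAA in capitals.
S100a4: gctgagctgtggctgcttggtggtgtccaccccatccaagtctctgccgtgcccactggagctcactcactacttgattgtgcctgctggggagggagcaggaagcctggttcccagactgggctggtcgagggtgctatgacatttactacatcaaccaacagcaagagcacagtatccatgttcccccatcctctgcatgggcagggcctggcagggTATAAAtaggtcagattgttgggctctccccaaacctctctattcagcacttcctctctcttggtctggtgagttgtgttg
TATAAA was searched on both strands. It begins 31 bases before the annotated start of S100a4, and 13.6% of 32851 RefSeq promoters of this length hold it on either strand. The AP-1 motif TGANTCA has no match in this window, and 7.81% of promoters hold it. Only 2 CG dinucleotides occur in it, and the median promoter has 7.

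S100a1 is the muscle member that binds the ryanodine receptor and the calcium pump of the sarcoplasmic reticulum and titin in the sarcomere. Its 2 probe sets gave different pictures. Probe set 1417421_at had signals of 1772.1, 1809.6, 1773.1 and 2293.2 in dystrophic replicates 1 to 4, against 1539.8, 1424.5, 1582.9 and 1294.8 in normal replicates 1 to 4. These groups did not overlap, and dystrophic replicate 4 was the highest. Groups without overlap were found for 2 of the 7 tested S100 probe sets, this one and that of S100a4, and for 6.4% of all tested probe sets (3.87% with the dystrophic pools higher). The difference was 0.38 (SE 0.13) and did not pass limma (adjusted p = 0.332), while the two-sided exact permutation p was 0.0286. Probe set 1419814_s_at, whose suffix marks probes that can match more than one transcript, had 5494.5, 5129.3, 4555.3 and 5978.9 in dystrophic replicates 1 to 4. The normal replicates 1 to 4 had 5985.6, 4621.2, 5395.6 and 4247.6. All dystrophic pools lay within the normal range, at a difference of 0.069 (SE 0.14, limma adjusted p = 0.927). The ratio of the first probe set to the second was 0.323 to 0.389 in dystrophic and 0.257 to 0.308 in normal pools, so the probe sets of this gene changed unequally.

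S100a13, which helps export the growth factor Fgf1 from cells, is the head-to-head neighbour of S100a1 on chromosome 3. Its probe set, 1418704_at, had 885.3, 1082.1, 1192.1 and 1264.1 in dystrophic replicates 1 to 4, against 832.0, 784.1, 1084.8 and 890.4 in normal replicates 1 to 4. Dystrophic replicates 3 and 4 lay above every normal pool, while the other 2 lay among them. The difference was 0.29 (SE 0.15, limma adjusted p = 0.564).

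The promoter of S100a13 is printed because it shares most of its bases with that of S100a1. It lies at chr3:90514185-90514484 on the plus strand of GRCm38.p6, and that of S100a1 at chr3:90514281-90514580 on the minus strand, both from RefSeq. The 204 shared bases are in capitals.
S100a13: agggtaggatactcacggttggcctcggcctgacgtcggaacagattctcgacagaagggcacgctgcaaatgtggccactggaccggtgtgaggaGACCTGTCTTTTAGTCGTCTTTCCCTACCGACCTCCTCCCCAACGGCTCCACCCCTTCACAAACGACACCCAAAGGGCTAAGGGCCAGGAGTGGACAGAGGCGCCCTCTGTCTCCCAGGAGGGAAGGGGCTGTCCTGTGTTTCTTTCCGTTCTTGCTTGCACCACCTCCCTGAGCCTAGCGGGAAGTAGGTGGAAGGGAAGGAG
The annotated starts used for these promoters are 105 bases apart and read away from each other. S100a13 holds 14 CG dinucleotides and S100a1 11. Neither TATAAA nor TGANTCA is found in either promoter.

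S100a6, calcyclin, binds annexins and the ubiquitin ligase partner Cacybp and is abundant in dividing fibroblasts. Probe set 1421375_a_at had signals of 1716.5, 2045.4, 2264.4 and 2346.1 in dystrophic replicates 1 to 4, against 1341.4, 1663.3, 1830.0 and 1362.2 in normal replicates 1 to 4. Of the dystrophic pools 3 lay above every normal pool, and dystrophic replicate 1 lay below normal replicate 3. The mean was 2093 ± 281 in dystrophic and 1549 ± 238 in normal pools (SD, n = 4). The log2 difference was 0.43 (SE 0.15), which did not pass limma (adjusted p = 0.332). It was 0.35, 0.30 and 0.54 at the spike-in levels of replicate 1, replicate 3 and replicates 2 and 4.

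S100a10, the annexin A2 partner that carries channels to the cell surface and binds plasminogen, was read by 2 probe sets. Probe set 1416762_at had 1434.2, 1733.4, 2112.0 and 2335.8 in dystrophic replicates 1 to 4, against 1469.0, 933.4, 1612.0 and 1429.1 in normal replicates 1 to 4. Again 3 dystrophic pools lay above every normal pool, and replicate 1 did not. The log2 difference was 0.48 (SE 0.20, limma adjusted p = 0.458), and -0.03 between the replicate 1 arrays alone. Probe set 1456642_x_at, of the kind that can cross-hybridise to similar sequences, had 407.3, 883.9, 737.8 and 649.5 in dystrophic replicates 1 to 4. The normal replicates 1 to 4 had 317.6, 399.9, 704.6 and 727.9. The groups overlapped, with replicate 1 the lowest of each group, at a difference of 0.34 (SE 0.29, limma adjusted p = 0.774). With 1 array left out this difference ran from 0.125, without normal replicate 1, to 0.555, without dystrophic replicate 1, and that of 1416762_at was 0.315 without normal replicate 2. The ratio of these probe sets ran from 1.96 to 4.63 over the arrays and overlapped between groups.

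Dystrophic replicate 1 had the lowest and dystrophic replicate 4 the highest signal of the 4 dystrophic pools for S100a4, S100a6, S100a13 and S100a10 at 1416762_at. The normal pools had no order that all 4 of these probe sets shared. The summed macrophage and monocyte signal in dystrophic replicates 1 to 4 was 17460, 19530, 20450 and 23000, and the summed fibroblast signal 47360, 59210, 56280 and 54030. The macrophage sum thus rose from dystrophic replicate 1 to 4 as these 4 S100 probe sets did, but its genes did not all do so. Lyz1 went from 2552.5 in dystrophic replicate 1 to 5447.1 in replicate 4. Adgre1, Fcgr3, Itgam and Mrc1 were lower in dystrophic replicate 4 than in replicate 1, and the rest of the listed genes were higher. The 4 S100 probe sets were grouped here for that order, which S100a10 at 1456642_x_at and both S100a1 probe sets did not have. In normal replicates 1 to 4 the macrophage sum was 10900, 16250, 11200 and 11120. It was highest in normal replicate 2. S100a4 was highest in normal replicate 4, and S100a6, S100a13 and S100a10 at 1416762_at were highest in normal replicate 3. The part of these cells was not tested.

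By the same measure, the other tested members lay nearest to genes that limma did not call. These members were not called either and the genes were picked for like profiles, so this adds no result. S100a6 lay nearest to Dbn1, the actin-binding protein drebrin, at 0.0799 log2 units and to Tgfbr1, a TGF-beta receptor, at 0.0841 (median gene 0.371). Tgfbr1 had 1231 ± 128 in dystrophic and 882 ± 109 in normal pools (SD, n = 4, limma adjusted p = 0.2). S100a10 at its brighter probe set lay nearest to the transcription regulator Sertad1, at 0.166, and the ribosomal protein Rps19, at 0.168 (median gene 0.446). S100a13 lay nearest to Tor2a, at 0.0759, and Il10rb, a receptor chain for IL-10, at 0.0829 (median gene 0.338). S100a1 at its brighter probe set lay nearest to Gtf2f1, a general transcription factor, at 0.065, and to the chaperone Bag6, at 0.0652 (median gene 0.28). A gene with equal values on all arrays would lie at 0.282 from S100a6, 0.373 from S100a10, 0.235 from S100a13 and 0.173 from S100a1.

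**Figure D2:**
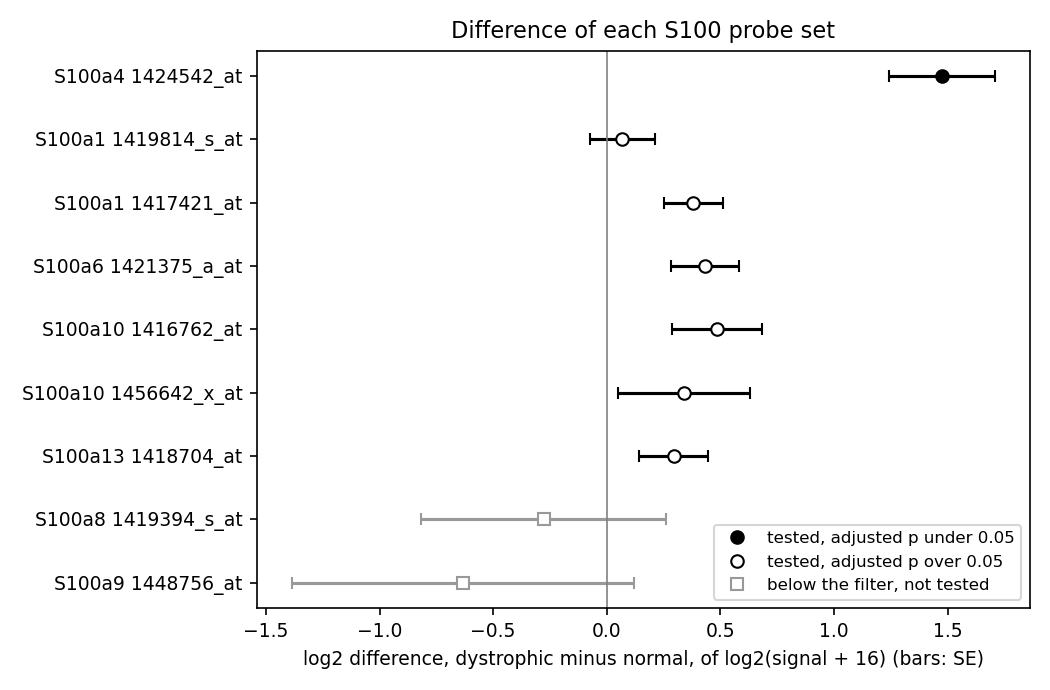
Log2 difference, dystrophic minus normal, of each S100 probe set (points) with its SE (bars). S100a4, at 1.47, is the filled point that passed the limma test; open circles were tested and did not pass, and grey squares, S100a8 and S100a9, lay below the filter on low values.

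S100a8 and S100a9, the calprotectin pair, were dim and varied widely between pools of both groups. They lay at the 36.6 and 36.2 percentiles of brightness and so below the filter, and no call is given. S100a8, at another probe set of the _s_at kind, 1419394_s_at, had 99.0, 261.7, 55.1 and 46.2 in dystrophic replicates 1 to 4, against 82.1, 120.0, 57.6 and 294.6 in normal replicates 1 to 4. Dystrophic replicate 2 and normal replicate 4 were high, and the groups overlapped. S100a9, at 1448756_at, had 84.5, 285.2, 15.0 and 70.3 in dystrophic replicates 1 to 4, against 65.0, 189.7, 43.4 and 456.9 in normal replicates 1 to 4. The same pools, dystrophic replicate 2 and normal replicate 4, were the highest. Dystrophic replicate 3 was within the TrpnX range. Within dystrophic and normal pools the highest was 5.66 and 5.11 times the lowest for S100a8, and 19.0 and 10.5 times for S100a9. For S100a4 it was 2.19 and 1.61 times the lowest.

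The log2 differences were -0.28 (SE 0.54) for S100a8 and -0.63 (SE 0.75) for S100a9 in a limma fit with no filter, where neither passed (adjusted p = 0.951 and 0.907). They were 0.34 and 0.47 without dystrophic replicate 3 and normal replicate 4, and -0.73 and -1.19 without dystrophic replicate 2. Both differences thus depended on which arrays were kept. Without normal replicate 4 alone they were 0.13 and -0.071. The exact two-sided permutation test gave p = 0.629 and 0.543.

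The sum of other neutrophil genes, to which the brighter ones add most, was not raised in both of these pools. The summed signal of 17 neutrophil markers on the array was 1914, 1979, 1709 and 1409 in dystrophic replicates 1 to 4, against 1917, 1510, 1463 and 1461 in normal replicates 1 to 4. Dystrophic replicate 2 was the highest for this sum too, while normal replicate 4, the highest for S100a8 and S100a9, was level with normal replicate 3. Hdc, Prtn3 and Ltb4r1 lay within the TrpnX range on every array. Over all 8214 tested genes limma called 49 higher and 4 lower, and 540 were higher and 344 lower at an unadjusted p under 0.05. Of 6 tested neutrophil markers limma called 0, with 1 higher and 1 lower at that unadjusted level. The higher one was Lcn2, lipocalin 2, an iron-sequestering protein that other cells also make, and the lower one Mmp9, a gelatinase, both chosen here after their values were seen. Lcn2 averaged 476 ± 45.4 in dystrophic and 242 ± 83.3 in normal pools (SD, n = 4, limma adjusted p = 0.0743). In the fit to gene means its log2 difference was the same, 0.98, and it was called (limma adjusted p = 0.0449). That fit called 70 of 7478 genes. Mmp9 averaged 135 ± 37.8 in dystrophic and 215 ± 23.97 in normal pools (SD, n = 4), a difference of -0.65 (limma adjusted p = 0.305). Neither had groups that overlapped.

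**Figure D3:**
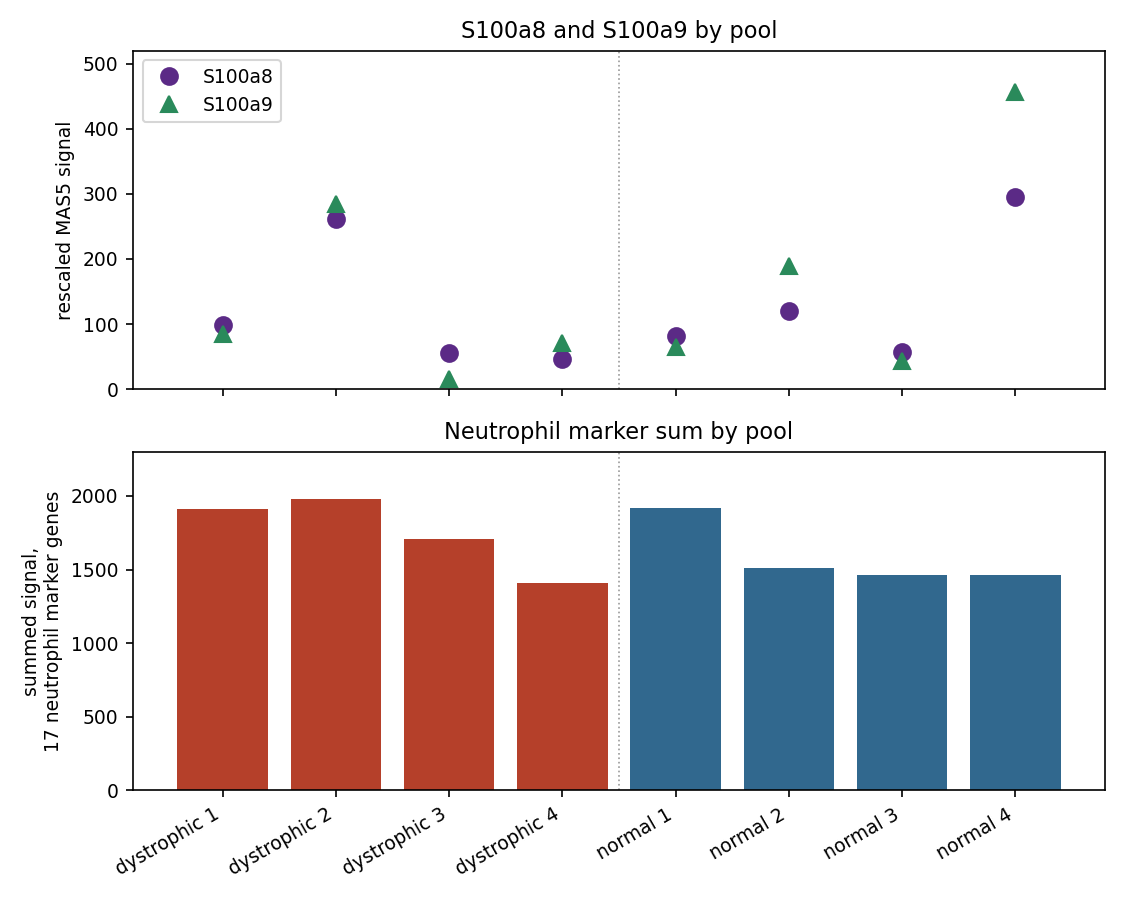
Rescaled MAS5 signal of S100a8 (circles) and S100a9 (triangles) in each pool (upper panel) and the summed signal of 17 neutrophil marker genes in the same pools (lower panel, bars from 0). S100a8 and S100a9 are highest in dystrophic replicate 2 and normal replicate 4, where the marker sum is 1979 and 1461.

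The promoters of S100a8 and S100a9 are printed because their signals were high in the same pools. They are RefSeq stretches on GRCm38.p6, at chr3:90668821-90669120 on the plus strand for S100a8 and chr3:90695672-90695971 on the minus strand for S100a9, with TATAAA in capitals.
S100a8: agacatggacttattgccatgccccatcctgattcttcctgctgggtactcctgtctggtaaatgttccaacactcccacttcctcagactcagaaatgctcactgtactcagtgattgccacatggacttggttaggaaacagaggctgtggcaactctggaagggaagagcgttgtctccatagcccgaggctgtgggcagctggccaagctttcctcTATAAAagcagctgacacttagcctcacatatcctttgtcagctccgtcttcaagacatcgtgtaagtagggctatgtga
S100a9: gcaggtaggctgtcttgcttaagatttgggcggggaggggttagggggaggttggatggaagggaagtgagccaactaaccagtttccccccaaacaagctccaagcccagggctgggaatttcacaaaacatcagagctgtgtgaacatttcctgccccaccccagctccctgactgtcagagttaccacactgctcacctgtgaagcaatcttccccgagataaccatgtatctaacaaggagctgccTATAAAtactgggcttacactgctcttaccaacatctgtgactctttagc
TATAAA begins 30 bases before the annotated start of S100a8 and at base 1 of the annotated transcript of S100a9. Of the 8 members 7 matched an entry in the promoter table, all but S100a10. TATAAA was found in 3 of these, those of S100a4, S100a8 and S100a9, and TGANTCA in 1, that of S100a11, at 2 places.

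In a list of other S100 genes and relatives limma called 0 of 4 tested, where 0.597% of all tested genes were called higher. Of the 4 tested genes, 0 had an unadjusted p under 0.05. These were the S100 genes S100a16 and S100a5, the gene S100pbp, and Rptn, which encodes repetin, a skin protein with an S100-like domain. S100a16, which lies between S100a13 and S100a4 on chromosome 3, had 1778 ± 151 in dystrophic and 1583 ± 157 in normal pools (SD, n = 4), a log2 difference of 0.17 (SE 0.12). S100a5, between S100a4 and S100a6, had 134 ± 50.8 in dystrophic and 161 ± 60.4 in normal pools (SD, n = 4), a difference of -0.23 (SE 0.31, limma adjusted p = 0.874). The S100 gene at each side of S100a4 with a tested probe set thus did not pass the test. S100pbp, which encodes an S100P-binding protein, was at 0.27 (SE 0.15), and Rptn at -0.22 (SE 0.22). S100a3, S100a14, S100b and S100g lay below the filter.

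No tested binding partner of the S100 proteins was called. Limma called 49 of all 8214 tested genes higher and 4 lower, so 0 calls in short lists say little about the partners. Of 9 annexins and other partners limma called 0. An unadjusted p under 0.05 was reached by 4, each of them higher, where 6.57% of all tested genes were. Of the 9, 7 lay above 0, as did 48.5% of all tested genes. The median was 0.31 by the brightest probe set of each gene and 0.17 by the mean of its probe sets, beside -0.01 over all tested genes. Ahnak, a giant scaffold bound by S100a10 and annexin A2, had 5607.8, 5129.6, 4440.3 and 4481.5 in dystrophic replicates 1 to 4, against 4182.2, 3540.8, 3348.6 and 2852.6 in normal replicates 1 to 4. Its groups did not overlap, with a difference of 0.50 (SE 0.14), which did not pass (limma adjusted p = 0.201). Anxa2, the annexin that S100a10 binds, had 3044 ± 626 in dystrophic and 2490 ± 760 in normal pools (SD, n = 4), a difference of 0.31 (SE 0.21, limma adjusted p = 0.696).

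Of all tested genes limma called 0.597% higher, and 6.57% were higher at an unadjusted p under 0.05. Receptors of secreted S100 proteins and their adaptors had 0 of 6 tested genes called, and 0 reached that unadjusted level. Their median was 0.12. Cd36, a scavenger receptor that also takes up fatty acids, was at -0.21 (SE 0.14), and Bsg, basigin, at 0.25 (SE 0.24). Tlr4, the toll-like receptor for S100a8 and S100a9, had 168 ± 20.6 in dystrophic and 150 ± 32.1 in normal pools (SD, n = 4). Ager, the receptor RAGE, lay below the filter.

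Of 10 tested cytoskeletal and plasminogen-system partners limma called 0, and 1 had an unadjusted p under 0.05, higher, as did 6.57% of all tested genes. The median was 0.13. The tropomyosins Tpm1, at -0.23 (SE 0.17), and Tpm2, at -0.06 (SE 0.15), were the brightest. Of 12 calcium cycling and other targets of S100a1 limma called 0, and 0 had an unadjusted p under 0.05. Of these 12, 3 lay above 0, where 48.5% of all tested genes did. The median was -0.12. Atp2a1, the fast calcium pump, had a difference of -0.23 (SE 0.17), and Aldoa, aldolase A, of -0.10 (SE 0.12). For the release partners of S100a13, Fgf1 was at -0.15 (SE 0.13) and Sphk1, a sphingosine kinase, at -0.047 (SE 0.22). Limma called 0 of these 2, and 0 had an unadjusted p under 0.05.

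**Figure D4:**
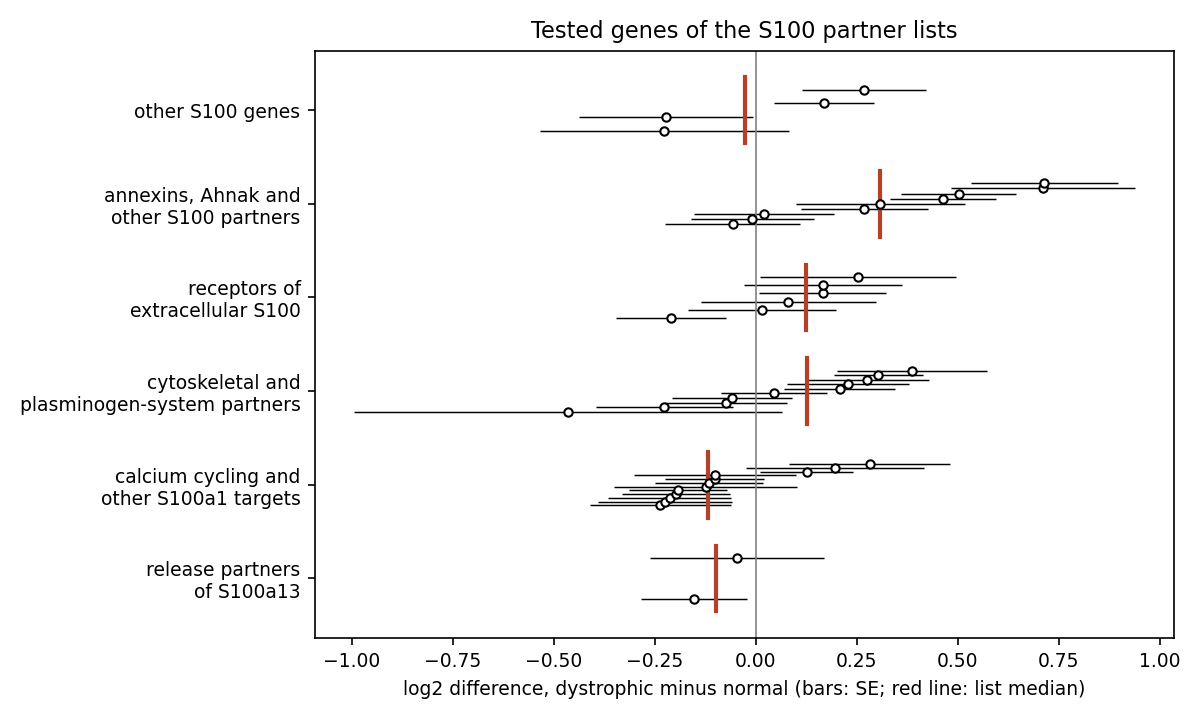
Log2 difference, dystrophic minus normal, of each tested gene (open circles, with SE) in 6 lists of S100 relatives and partners; red lines mark list medians. None of the genes passed the limma test, which 0.597% of all tested genes passed as higher. The medians run from -0.12 for the S100a1 targets to 0.31 for the annexins and other partners.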

How the data were processed

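The deposited file holds linear intensity values, 1 per probe set and array, made with MAS5 per the submitters' processing notes. No version, detection call or hybridisation date was at hand. Normal replicate 4 had a trimmed mean (2% left out at each end) of 400.2 and the other 7 arrays of 500.2, so all were brought to the common mean, 487.7. The number of arrays limits the precision.

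Of the 22626 probe sets other than controls, 20380 carried 1 gene symbol, 691 several and 1555 none in the platform annotation. Symbols were updated by Entrez identifier with a RefSeq table of GRCm38.p6 (20351 matched). Values were taken as log2(signal + 16), which damps dim signals, and the lowest 40% by mean were left out. The test was that of limma 3.58.1 under R 4.3.3 (intensity trend, Benjamini-Hochberg, threshold 0.05), and the fit was tested on simulated data. A gene of a list was represented by its brightest probe set.

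Members, lists and alternatives were chosen with earlier results of these data known. The genes named are all members, the 2 nearest profiles of each tested member, called genes of each partner list or its 2 brightest, and markers where a result needed them. Outside that rule, Lama2, Tlr4, Ager, Rptn and the remaining S100 genes were named for their family or role. Alternatives were offsets of 1 and 64, unscaled and quantile-normalized values, a 75th percentile shift, other filters, no trend, robust hyperparameters, array weights, blocks, each array left out, a threshold of 0.01 and gene means. Plots used matplotlib 3.10.9 and Python 3.11.15.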

Additional observations from a re-analysis of the deposited data

Results flagged for a closer look

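Within a group of 4 pools, 1 pool stood far from the other 3 in 5 of 36 groups examined, where chance gives about 1 in 20. In S100a1 at 1417421_at, dystrophic replicate 4 had 2293.2, against 1772.1 to 1809.6 in the other dystrophic pools. The neutrophil marker sum of normal replicate 1 was 1917, against 1461 to 1510 in the other normal pools. The macrophage and monocyte sum of normal replicate 2 was 16250, against 10900 to 11200 in the other normal pools. The liver marker sum was 60330 in dystrophic replicate 3, and 4567 in normal replicate 2, against 1591 to 1881 in the other normal pools.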

How the results depend on the processing

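S100a4 kept its direction under all 21 alternatives (log2 difference 1.32 to 1.70) and its call under 15 of them, with adjusted p up to 0.0818. It was 1.33 to 1.70 with each array left out in turn, and 1.52 without dystrophic replicate 3 and normal replicate 4. The count of S100 probe sets called was 1, and 0 or 1 with an array left out, 0 without those 2 arrays and 0 at a threshold of 0.01. No other tested S100 probe set was called under any alternative, the lowest adjusted p being 0.15 for S100a6. The S100a1 probe set 1419814_s_at turned to -0.011 without normal replicate 4 and lay up to 0.153 without another array. The count of all probe sets called, 67, was 127 with array weights, 114 with the spike-in level as a block, 31 without those 2 arrays and 24 at a threshold of 0.01. It was 25 to 61 with each array left out, the lower counts being 34, 29 and 25 without dystrophic replicates 2, 3 and 4. With the replicate number as a block it was 105, and S100a4 had 1.47 (adjusted p = 0.0114). The labels do not say that a number marks a shared source, and the numbers were not taken as pairs, although same-numbered arrays had spike-in levels in common. Their deviations from group means correlated at 0.48, -0.046, 0.15 and 0.13 for replicates 1 to 4, and dystrophic replicates 2 and 3 correlated better with another number. The partner lists had 0 called genes by their brightest probe sets and 0 by gene means, whereas the macrophage markers had 3 and 5 and the neutrophil markers 0 and 1. The markers gained, Lcn2, Ms4a7 and Tyrobp, had the same log2 difference in both fits, and the gene-mean fit was adjusted over 7478 genes. The cause of the shifts between alternatives was not tested, and the fits without an array also had fewer arrays. MAS5 values of dim probe sets such as S100a8 and S100a9 are noisy, and 4 pools per group limit what can be seen.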
